A study of Mus musculus with 6 samples.

Results

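The genes examined were Fkbp5, Tsc22d3, Zbtb16, Sgk1, Klf9, Mt1, Mt2, Cdkn1a and Errfi1, which glucocorticoid hormones induce in many tissues, and Nr3c1, which encodes the glucocorticoid receptor. They were found by their symbols, and all 10 were among the 41388 genes of the count table. Lung RNA of 6 mice, as labelled, was collected at Zeitgeber time 7, that is 7 h after lights on. The mice were kept in a 12 h light and 12 h dark cycle with free access to food. Mutant mice (KO) were of the B6.129S7-Zpbp2tmZuk/Mmjax strain on a C57BL/6J background and carried a deletion of exons 1 to 3 of Zpbp2, which also removes part of its promoter. The controls (WT) were C57BL/6J mice of the same colony, not stated to be littermates, and the labels give no treatment for either group. Each genotype had 3 libraries, named WT1, WT2, WT3, KO1, KO2 and KO3. Ages and the sex of each mouse were not given in the sources used here, although the study calls the mice of its separate time series adult.

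Glucocorticoids enter the cell and bind the receptor NR3C1, which is held ready by HSP90 and its co-chaperones FKBP4 and PTGES3. The hormone-bound receptor moves to the nucleus and binds palindromic DNA elements, and a set of target genes responds within hours in nearly every tissue. Several of these targets feed back on the response: FKBP5 lowers the affinity of the receptor for hormone, TSC22D3 (GILZ) dampens inflammatory signalling, and the kinase SGK1 raises sodium transport in epithelia such as that of the lung. Corticosterone in mice is low in the morning and rises towards the dark phase, so the targets also carry a daily rhythm.

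Total counts per library were 59134950 to 71354388. The counts of KO2 and KO3 lay almost within sampling noise of each other. Their median variance was 1.71 to 3.32 times that of counting alone across classes of gene abundance, against 1.86 to 51.6 times for WT1 and WT2. They were counted as 1 sample, which left 3 WT and 2 KO samples, and each mean below is given ± SD over those samples (n = 3 and n = 2). The label check held: the 3 WT libraries had 20, 15 and 7 Zpbp2 counts, and the 3 KO libraries 1, 0 and 0. Alveolar type 2 cell markers summed to 27816 to 39926 CPM (counts scaled to library size with TMM factors), and endothelial markers to 4319 to 5208 CPM, so the tissue label also held. WT3 and KO1 stood apart from the other libraries on the first principal component (66.2% of the variance), and both held squamous epithelium markers, which summed to 4839 and 9235 CPM there and to 22.9 to 34.6 CPM elsewhere. Over all 18660 tested genes, 426 (2.28%; 1.38% higher and 0.906% lower in KO) had an edgeR adjusted p of at most 0.05, and with library size alone as the scaling 306 did (117 higher and 189 lower in place of 257 and 169). When WT1, WT2 or WT3 was left out 0 passed, with 3642, 3346 and 4193 genes at an unadjusted p up to 0.05.

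All 10 genes were tested, and 0 passed an edgeR adjusted p of 0.05. Their log2 fold changes, KO over WT, were above 0 in 8 and below 0 in 2, with a median of 0.18 against 0.02 for all tested genes. The median was 0.34 without WT3, 0.36 without WT3 and KO1 and 0.09 without KO2 and KO3, and the number above 0 was 6 without WT1, without KO1, or without KO2 and KO3. In whole lung, fewer cells of a type and less RNA per cell cannot be told apart. Without adjustment, p was 0.05 or less for Fkbp5, Mt1 and Nr3c1, 3 of the 10, beside 27.3% of all tested genes. In the same 3 genes the 3 KO libraries did not overlap the 3 WT libraries, Fkbp5 and Mt1 being higher and Nr3c1 lower in KO; among tested genes 40.9% did not overlap (20.7% higher and 20.2% lower in KO). DESeq2 called 2 of the 10 (Nr3c1 and Mt1), beside 20.9% of all tested genes. With the 6 libraries kept separate 1 was called (Nr3c1, beside 18.9%), with a term for squamous epithelium markers 2 (Mt1 and Mt2, beside 9.87%), and without WT3 and KO1, which leaves 1 KO sample, 3 (Mt1, Mt2 and Zbtb16, beside 11.9%). None of the 10 was called with the replicate block, a fit that also kept the 6 libraries separate (beside 6.42%). Nor was any called with RLE size factors (2.29%), library size alone (1.64%) or no filter (1.53%). The same held for at least 10 counts per library (5.54%), the edgeR exact test (1.12%) and an offset for gene length and GC content (0.0161%). None was called without KO1 (0.0883%), KO2 (1.92%) or KO3 (2.26%), nor without any 1 WT library or without KO2 and KO3, where 0 genes of any kind were called.

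**Figure D1:**
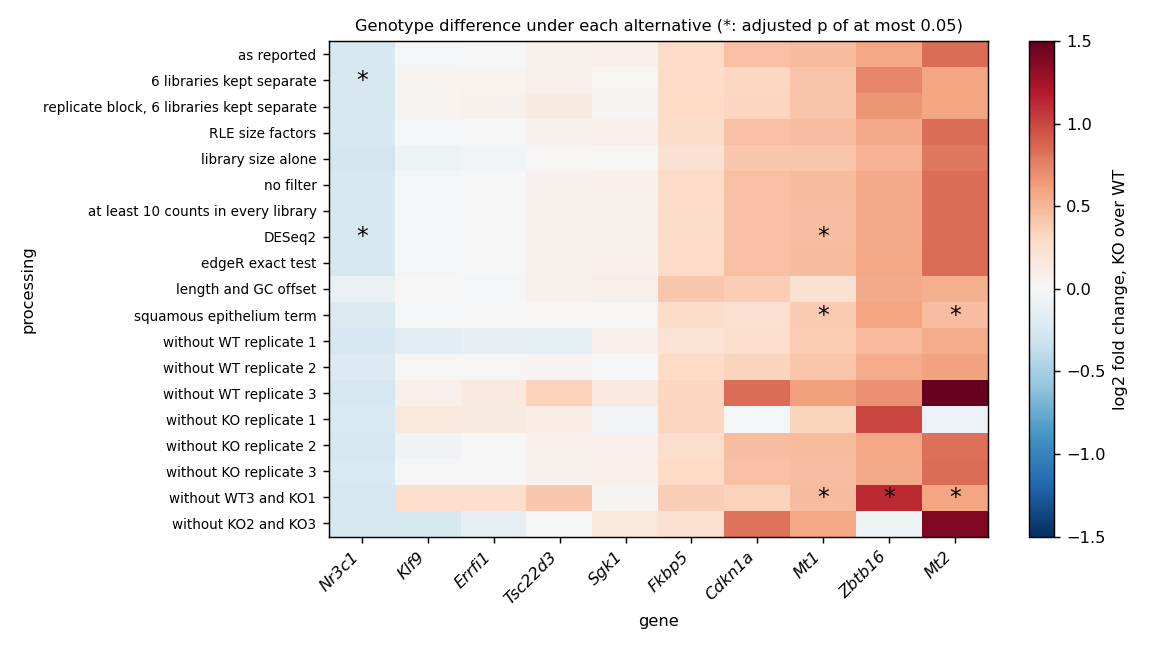
Log2 fold change, KO over WT (colour, limited to ± 1.5), of the 10 genes (x axis) under the reported processing and each alternative (y axis). Stars mark an adjusted p of at most 0.05. Nr3c1 is below 0, and Fkbp5 and Mt1 above 0, under every setting shown, while the other 7 genes take both signs.

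**Figure D2:**
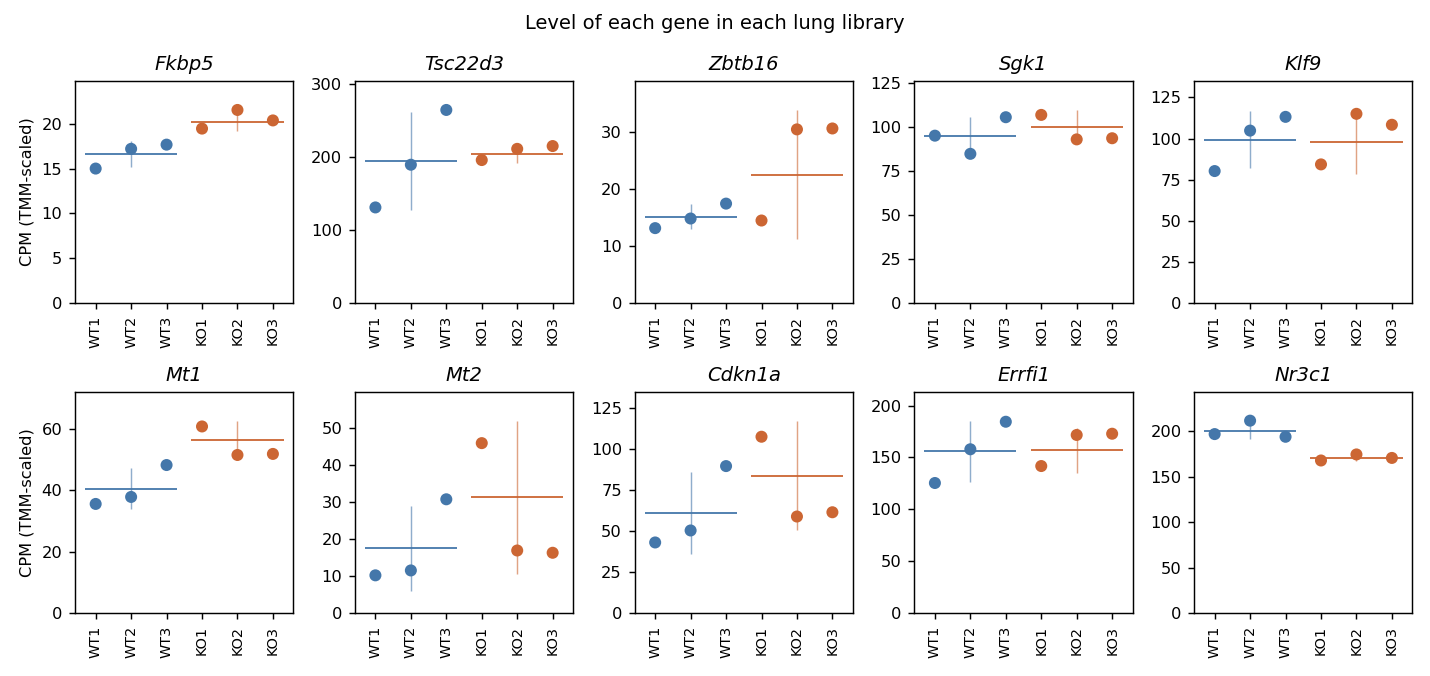
Level of each of the 10 genes in CPM (y axis, from 0) in the 6 lung libraries (x axis), WT in blue and KO in orange. Horizontal lines are genotype means over 3 WT and 2 KO samples (KO2 and KO3 averaged as 1), and vertical lines are ± 1 SD. Fkbp5, Mt1 and Nr3c1 are the 3 genes whose genotypes do not overlap, and Mt2 and Cdkn1a are highest in WT3 and KO1.

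**Figure D3:**
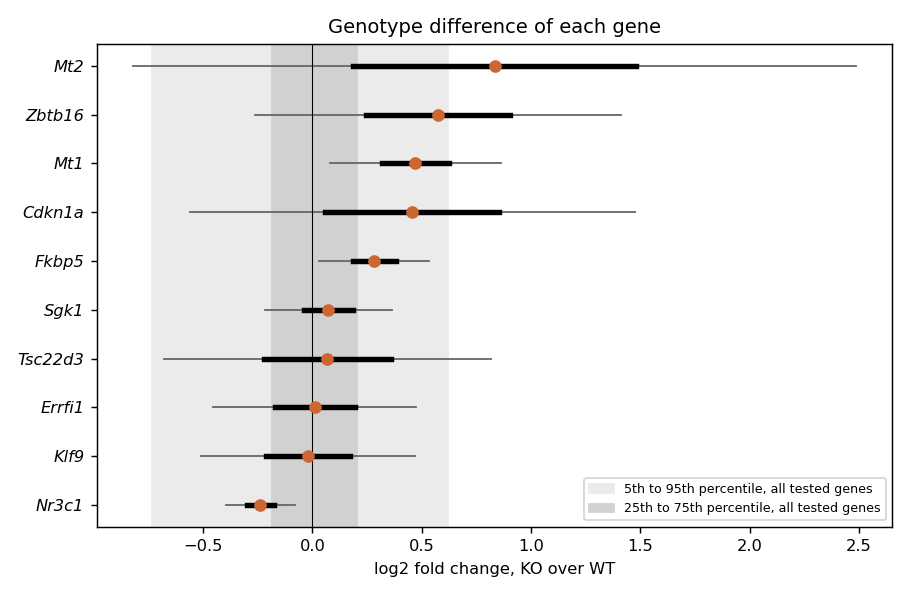
Log2 fold change, KO over WT (x axis), of each gene (y axis). Thick bars are ± 1 SE, thin bars the 95% interval of the edgeR fit, and grey bands the central range of all 18660 tested genes. The intervals of Fkbp5, Mt1 and Nr3c1 exclude 0 before adjustment, and that of Mt2 runs from -0.82 to 2.49.

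A short stretch of DNA is shown for 3 of the genes: for Sgk1 because it alone of the 8 genes with a window held the full palindromic receptor element, and for the neighbours Mt1 and Mt2 because within each genotype the same library, WT3 or KO1, was highest for both. RefSeq promoter windows on GRCm38.p6, 300 bases long with 250 before and 50 after an annotated start, were matched by symbol for 8 of the 10 genes in 17 windows. In the Sgk1 window chr10:21993640-21993939, plus strand, capitals mark the glucocorticoid response element, AGAACA and TGTTCT with 3 bases between them, here at positions 21993701 to 21993715 of chromosome 10.
Sgk1: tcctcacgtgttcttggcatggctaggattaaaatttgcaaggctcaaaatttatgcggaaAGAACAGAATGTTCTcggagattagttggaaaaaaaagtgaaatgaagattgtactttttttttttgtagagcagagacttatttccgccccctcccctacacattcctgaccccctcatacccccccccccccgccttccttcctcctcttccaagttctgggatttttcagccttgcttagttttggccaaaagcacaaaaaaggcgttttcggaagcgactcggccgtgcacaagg
In the Mt1 window chr8:94178839-94179138 and the Mt2 window chr8:94172368-94172667, both on the plus strand, capitals mark metal response element cores, TGCACNC or TGCGCNC on either strand.
Mt1: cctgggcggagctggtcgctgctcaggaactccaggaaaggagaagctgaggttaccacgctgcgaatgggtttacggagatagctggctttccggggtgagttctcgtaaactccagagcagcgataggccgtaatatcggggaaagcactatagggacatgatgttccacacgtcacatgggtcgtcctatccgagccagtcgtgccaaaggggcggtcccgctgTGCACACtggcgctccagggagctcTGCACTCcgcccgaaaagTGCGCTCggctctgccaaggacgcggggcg
Mt2: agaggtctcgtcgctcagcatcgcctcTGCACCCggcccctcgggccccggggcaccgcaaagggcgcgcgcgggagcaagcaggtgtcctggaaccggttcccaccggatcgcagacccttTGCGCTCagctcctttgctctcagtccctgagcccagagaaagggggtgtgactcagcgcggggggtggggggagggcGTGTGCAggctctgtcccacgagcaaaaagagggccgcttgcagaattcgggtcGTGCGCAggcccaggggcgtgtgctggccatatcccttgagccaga

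The full element, searched on both strands, was in 3 of all 32851 windows of this length (0.00913%), of which the Sgk1 window was 1. The single arm AGAACA was in 19.0% of all windows and in 4 windows of 2 of the 10 genes, Sgk1 and Tsc22d3; 2 of these matches lay inside the full element of Sgk1. The metal element cores TGCACNC and TGCGCNC, which bind the zinc-sensing factor MTF1, were in 12.6% and 15.4% of all windows, and the Mt1 window held 3 cores and the Mt2 window 4. An Sgk1 window other than the one printed also held 1 TGCGCNC core. The E-box CACGTG, the element of the clock activators, was in 7.15% of windows and in 1 window each of Fkbp5 and Sgk1. The cAMP element TGACGTCA was in 1.79% of windows and in 1 Errfi1 window, and the D-box TTATGNAA was in 3.38% of windows and in none of the 17. A match describes the letters of a window and says nothing of binding.

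Nr3c1 (GRCm38 chromosome 18, 39410545 to 39519421, minus strand) encodes the glucocorticoid receptor itself. Its level was 197, 211 and 194 CPM in WT1 to WT3 and 168, 174 and 170 CPM in KO1 to KO3. All KO libraries were below all WT libraries, and the values within a genotype lay close together. The means were 200 ± 9.46 CPM and 170 ± 3.33 CPM, a log2 fold change of -0.24 (SE 0.06, 95% interval -0.39 to -0.08) with an edgeR adjusted p of 0.0902. Nr3c1 passed with DESeq2 (adjusted p 0.00207) and with the 6 libraries kept separate (0.0250), in a range of 0.00207 to 0.900 over 18 alternatives. With an offset for gene length and GC content the log2 fold change was -0.10 (edgeR adjusted p 0.267). The 2979 tested genes of similar exon length to Nr3c1 had a median log2 fold change of -0.08.

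Fkbp5 (chromosome 17, 28399094 to 28517527, minus strand) encodes the co-chaperone that closes a short feedback loop on the receptor. It had 15.0, 17.2 and 17.7 CPM in WT1 to WT3 and 19.5, 21.6 and 20.4 CPM in KO1 to KO3. The genotypes did not overlap, although the highest WT library and the lowest KO library were close. The means were 16.6 ± 1.43 CPM and 20.2 ± 1.06 CPM, a 1.22-fold difference with a log2 fold change of 0.28 (SE 0.10, 95% interval 0.03 to 0.53) and an edgeR adjusted p of 0.152. The lowest adjusted p over 18 alternatives was 0.0541, with the 6 libraries kept separate, so Fkbp5 passed in none of them. The offset for length and GC content gave 0.40 (edgeR adjusted p 0.106), and the 2156 tested genes of similar exon length had a median log2 fold change of -0.12.

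Tsc22d3 (chromosome X, 140539528 to 140600659, minus strand) encodes GILZ, a leucine zipper protein that mediates part of the anti-inflammatory action of glucocorticoids. Its level was 131, 189 and 264 CPM in WT1 to WT3 and 195, 211 and 215 CPM in KO1 to KO3. All KO libraries lay inside the WT range, which spanned 2.02-fold. Of 11011 tested genes with a mean of at least 10 CPM, 2.13% had a WT range at least as wide. KO over WT, the log2 fold change was 0.07 (SE 0.29, 95% interval -0.68 to 0.82, edgeR adjusted p 0.903).

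Zbtb16 (chromosome 9, 48654297 to 48836222, minus strand) encodes PLZF, a transcriptional repressor. It had 13.1, 14.8 and 17.4 CPM in WT1 to WT3, 14.4 CPM in KO1, and 30.4 and 30.6 CPM in KO2 and KO3. KO1 lay inside the WT range and the merged sample of KO2 and KO3 was above all other libraries, so the difference was in 1 of 2 KO samples. On the log2 scale the fold change was 0.58 (SE 0.33, 95% interval -0.26 to 1.41, edgeR adjusted p 0.328). It was -0.06 without KO2 and KO3 (adjusted p 0.844) and 1.12 without WT3 and KO1 (adjusted p 0.00112). Without KO1 alone it was 1.001 (adjusted p 0.0885). Each of these 3 fits left 1 KO sample, which was assumed to vary like WT. Other transcripts were also highest in KO2 and KO3: erythroid markers summed to 19175 and 19923 CPM against 2396 to 5522 CPM in the other libraries, immediate early genes to 4522 and 4473 CPM against 1869 to 3152 CPM, and hepatocyte markers to 154 and 157 CPM against 79.7 to 90.7 CPM. Their part in the level of Zbtb16 was not tested.

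Sgk1 (chromosome 10, 21882184 to 21999903, plus strand), whose window with the full receptor element is printed above, encodes the kinase that keeps the epithelial sodium channel at the cell surface. It had 94.9, 84.5 and 105 CPM in WT1 to WT3 and 107, 92.8 and 93.4 CPM in KO1 to KO3. The genotypes overlapped almost fully. The log2 fold change was 0.07 (SE 0.11, 95% interval -0.22 to 0.36, edgeR adjusted p 0.727).

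Klf9 (chromosome 19, 23141226 to 23168134, plus strand), a Krüppel-like transcription factor that both glucocorticoids and the clock induce, had 80.2, 105 and 113 CPM in WT1 to WT3. In KO1 to KO3 it had 84.3, 115 and 108 CPM. WT1 and KO1 were the lowest libraries of their genotypes and the remaining libraries overlapped. KO over WT, the log2 fold change was -0.02 (SE 0.19, 95% interval -0.51 to 0.47, edgeR adjusted p 0.960), and its sign turned under 7 of 18 alternatives.

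Errfi1 (chromosome 4, 150853919 to 150868892, plus strand) encodes MIG6, which inhibits receptors of the EGF family. It had 125, 158 and 184 CPM in WT1 to WT3 and 142, 172 and 173 CPM in KO1 to KO3. All KO libraries lay inside the WT range. On the log2 scale the fold change was 0.01 (SE 0.18, 95% interval -0.46 to 0.48, edgeR adjusted p 0.979), and its sign turned under 5 of 18 alternatives.

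Mt1 and Mt2 encode the widely expressed metallothioneins, small cysteine-rich proteins that hold zinc and copper, and both metals and glucocorticoids induce them. Mt1 (chromosome 8, 94179082 to 94180327, plus strand) had 35.6, 37.9 and 48.2 CPM in WT1 to WT3 and 60.8, 51.5 and 51.9 CPM in KO1 to KO3. Every KO library exceeded every WT library, with WT3 and KO1 the highest of their genotypes. The means were 40.6 ± 6.74 CPM and 56.2 ± 6.43 CPM, a 1.39-fold difference with a log2 fold change of 0.47 (SE 0.15, 95% interval 0.08 to 0.86) and an edgeR adjusted p of 0.135. Mt1 passed under 3 of 18 alternatives, with DESeq2 (adjusted p 0.0285), with a term for the squamous epithelium markers (0.0327) and without WT3 and KO1 (0.0119, with 1 KO sample left and assumed to vary like WT), in a range of 0.0119 to 0.497. The offset for length and GC content gave 0.23 for Mt1 (adjusted p 0.443), and the 1330 tested genes of similar exon length had a median of 0.20.

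Mt2 (chromosome 8, 94172664 to 94173568, plus strand) had 10.3, 11.6 and 30.8 CPM in WT1 to WT3 and 45.9, 17.0 and 16.4 CPM in KO1 to KO3. WT3 was 2.81 times the mean of WT1 and WT2, and KO1 was 2.75 times the mean of KO2 and KO3, so the spread within each genotype was wider than the step between them. The log2 fold change was 0.83 (SE 0.65, 95% interval -0.82 to 2.49, edgeR adjusted p 0.465). It was -0.09 without KO1 and 1.51 without WT3. With the term for squamous markers it was 0.46 and passed (adjusted p 0.0332). In GENCODE M21 an antisense gene, Gm45774, covers 73.5% of the exon bases of Mt2; it is not among the genes counted, so where strand was not used its reads would have been counted as Mt2. Mt1 and Mt2 are also paralogues.

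Cdkn1a (chromosome 17, 29090976 to 29100727, plus strand) encodes p21, which arrests the cell cycle and is induced by p53 as well as by glucocorticoids. It had 43.3, 50.6 and 89.8 CPM in WT1 to WT3 and 108, 59.1 and 61.7 CPM in KO1 to KO3. As for Mt2, WT3 and KO1 were the highest libraries of their genotypes, at 1.91 and 1.78 times the means of the others. KO over WT, the log2 fold change was 0.46 (SE 0.40, 95% interval -0.56 to 1.47, edgeR adjusted p 0.518), and it was -0.03 without KO1 and 0.84 without WT3. An uncounted gene on the opposite strand covers 7.68% of its exon bases.

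The libraries in which Mt2 and Cdkn1a were high were those that held the most squamous epithelium transcripts. Of the 14 squamous markers, 1 was at 0 counts in WT3 and in KO1 and 4 were at 0 in each of the other libraries, among them Krt6a and Krt6b. Mt4, the metallothionein of stratified squamous epithelium, had 2659 counts in WT3, 5023 in KO1 and at most 3 in any other library. Within the libraries high in squamous transcripts, KO1 exceeded WT3 by 0.58 for Mt2, 0.26 for Cdkn1a and 0.33 for Mt1 on the log2 scale. Within the libraries low in them, at 22.9 to 34.6 CPM of markers, KO2 and KO3 exceeded WT1 and WT2 by 0.61, 0.36 and 0.49. Each set holds 1 KO sample, and KO1 also held more squamous transcripts than WT3, whose part in the difference between these 2 libraries was not tested.

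**Figure D4:**
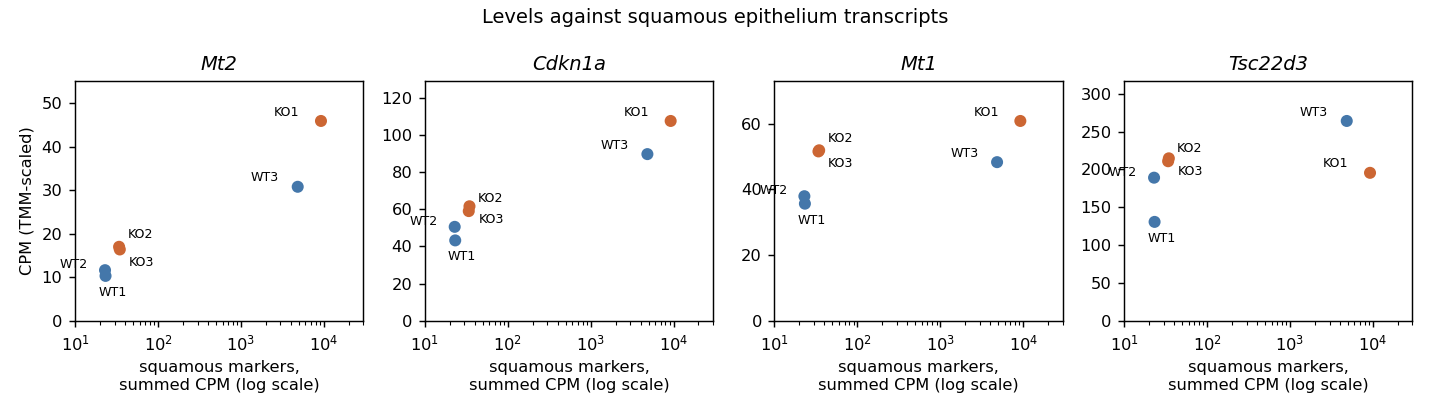
CPM of Mt2, Cdkn1a, Mt1 and Tsc22d3 (y axis, from 0) against the summed CPM of squamous epithelium markers (x axis, log scale) in the 6 libraries, WT in blue and KO in orange. WT3 and KO1, at 4839 and 9235 CPM of markers, hold the 2 highest values of Mt2 and Cdkn1a, while for Tsc22d3 WT3 is the highest library and KO1 lies among the others.

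Tsc22d3, Klf9, Errfi1 and Zbtb16 went in opposite directions in the 2 sets of libraries. KO1 was below WT3 by a log2 difference of -0.43 for Tsc22d3, -0.43 for Klf9, -0.38 for Errfi1 and -0.27 for Zbtb16. KO2 and KO3 were above WT1 and WT2 by 0.41, 0.27, 0.28 and 1.13. The other 6 genes kept 1 direction, and only Nr3c1 among them was lower in KO in both sets, by -0.21 and -0.24.

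For 9 of the 10 genes the WT libraries lay further apart than for the median gene. The highest WT library exceeded the lowest by 1.09-fold for Nr3c1, close to the median of 1.10-fold over the 11011 genes, and by 1.18-fold to 2.99-fold for the other 9. WT1 was the lowest and WT3 the highest WT library for 8 of the 10 genes, all but Sgk1 and Nr3c1, beside 15.8% of all tested genes and 13 of 32 other glucocorticoid-induced genes. This order was noticed after the values were seen. Per1, a clock gene with glucocorticoid elements, was chosen after its values were seen as a further case: it had 90.6, 130 and 185 CPM in WT1 to WT3 and 104, 177 and 179 CPM in KO1 to KO3 (edgeR adjusted p 0.936).

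Levels of the 10 genes were compared per kilobase of merged exon (CPM per kb) in WT. Tsc22d3 was highest at 44.8 ± 15.4 and was followed by Errfi1 at 43.5 ± 8.24, Mt1 at 32.6 ± 5.41, Mt2 at 29.8 ± 19.5 and Nr3c1 at 26.1 ± 1.23. The WT ranges of neighbours in this order overlapped. Klf9, Sgk1 and Cdkn1a came next at 20.6 ± 3.56, 19.4 ± 2.12 and 17.2 ± 7.04, again with overlapping ranges, and the range of Klf9 lay below that of Nr3c1. Zbtb16 at 2.86 ± 0.41 and Fkbp5 at 1.76 ± 0.15 were each below the range of the gene before. Fkbp5 has a merged exon length of 9468 bases, the longest of the 10. The merged exon of Mt1 is 1 block of 1246 bases that covers the whole gene, whereas that of Mt2 is 588 bases in 3 blocks. The place of Mt1 in this order depends on that annotated length, which also set its genes of similar exon length.

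Other genes that glucocorticoids are known to induce were examined next. All 32 listed genes were tested, and 3 (2 higher and 1 lower) passed, beside 2.28% of all tested genes, with a median log2 fold change of 0.16. At an unadjusted p up to 0.05 there were 13 of the 32, beside 27.3% of all tested genes, while 13 were called by DESeq2, beside 20.9%, and 16 without WT3 and KO1, beside 11.9%. Lcn2, lipocalin 2, which binds bacterial siderophores, rose from 72.4 ± 3.41 CPM in WT up to 116 ± 1.17 CPM in KO, which is 0.69 on the log2 scale (SE 0.06, edgeR adjusted p 0.0446). Cdkn1c, the cell cycle inhibitor p57, rose from 30.8 ± 1.94 CPM to 42.8 ± 0.42 CPM, with a log2 fold change of 0.47 (adjusted p 0.0474). Lpin1, the phosphatidic acid phosphatase lipin 1, fell from 85.1 ± 7.62 CPM to 53.8 ± 0.41 CPM, with a log2 fold change of -0.66 (edgeR adjusted p 0.0446). By library it had 82.1, 93.8 and 79.5 CPM in WT1 to WT3 and 54.1, 53.3 and 53.8 CPM in KO1 to KO3. Adipocyte markers were also lower in KO, summing to 1635 to 2395 CPM in WT and 589 to 661 CPM in KO. Their part in the level of Lpin1 was not tested. The 3 genes were called under 10 to 12 of 18 alternatives and lost the call with the offset for length and GC content, under which 3 of all tested genes were called. Under it the log2 fold changes were 0.54 for Lcn2, 0.23 for Cdkn1c and -0.52 for Lpin1 (adjusted p 0.0815, 0.114 and 0.0830). All 3 calls were also lost without KO1 (adjusted p 0.0829, 0.0985 and 0.0909) and without KO2 and KO3, and that of Cdkn1c with library size alone (0.0526) and the edgeR exact test (0.224). When any 1 WT library was left out, fits in which 0 genes of any kind were called, they were 0.66 to 0.72 for Lcn2, 0.42 to 0.51 for Cdkn1c and -0.71 to -0.59 for Lpin1.

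Among the other 29 genes, Zfp36, which destabilises cytokine mRNAs, had the largest change: 125 ± 26.3 CPM in WT and 357 ± 138 CPM in KO, which is 1.52 on the log2 scale (SE 0.29, edgeR adjusted p 0.0587). The study had picked Zfp36 from these libraries. Dusp1, a phosphatase of MAP kinases chosen after its values were seen, had 201, 148 and 237 CPM in WT1 to WT3, 322 CPM in KO1 and 518 CPM in both KO2 and KO3 (adjusted p 0.0859). Both are also immediate early genes, a class whose summed level was 3152 to 4522 CPM in KO against 1869 to 2342 CPM in WT, and the part of that class in their values was not tested. The abundant members Txnip and Scnn1a had log2 fold changes of -0.08 and 0.15 (adjusted p 0.528 and 0.369).

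**Figure D5:**
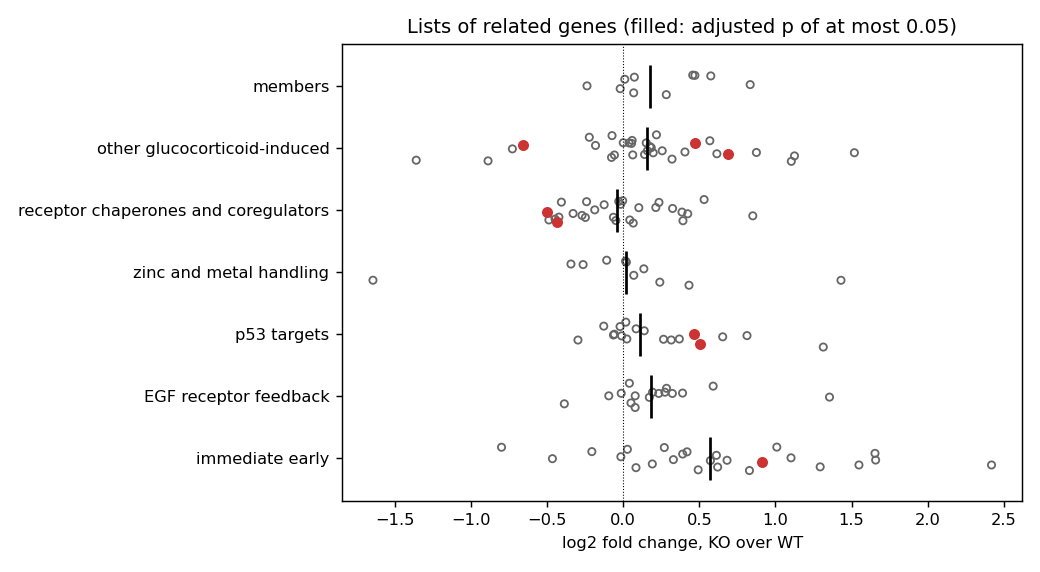
Log2 fold change, KO over WT (x axis), of every tested gene in the 10 examined and in 6 lists of related genes (y axis). Filled red points passed an edgeR adjusted p of 0.05 and black bars are list medians. Filled points are 0 of the 10 genes, 3 of 32 other glucocorticoid-induced genes and 2 of 28 genes of the receptor machinery, beside 2.28% of all tested genes.

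Of the receptor's chaperones, steroid-converting enzymes and coregulators, all 28 were tested and 2 passed, both lower in KO, beside 2.28% of all tested genes (0.906% lower), with a list median of -0.04. At an unadjusted p up to 0.05 there were 18 of the 28, beside 27.3% of all tested genes, and DESeq2 called 17, beside 20.9%. Nr3c2, the mineralocorticoid receptor, which also binds corticosterone, went from 28.7 ± 0.83 CPM in WT down to 20.3 ± 1.02 CPM in KO, which is -0.50 on the log2 scale (SE 0.07, edgeR adjusted p 0.0446). Nrip1, a corepressor of nuclear receptors, fell from 40.4 ± 1.68 CPM to 29.8 ± 1.76 CPM, with a log2 fold change of -0.44 (adjusted p 0.0496). Under the offset for length and GC content they had -0.42 and -0.22 (adjusted p 0.0830 and 0.260), and without any 1 WT library neither passed, at -0.53 to -0.49 and -0.47 to -0.41. Nr3c2 passed under 11 and Nrip1 under 8 of 18 alternatives, and both calls were also lost with the edgeR exact test (adjusted p 0.322 and 0.326), without KO1 and without KO2 and KO3. Nrip1 also missed the threshold with RLE size factors or no filter (0.0502 for each) and without KO3 (0.0511). Hsd11b2, which inactivates corticosterone, had the largest change of the list at a low level, 1.17 ± 0.22 CPM in WT and 2.12 ± 0.28 CPM in KO (log2 fold change 0.85, adjusted p 0.0900). Hsd11b1, which regenerates the active hormone and was chosen after its values were seen, had 207 ± 7.31 CPM in WT and 206 ± 36.3 CPM in KO. The abundant Hsp90ab1 and H6pd had adjusted p values of 0.702 and 0.204. Fkbp4, the receptor co-chaperone named above, was likewise chosen after its values were seen. It had 167 ± 2.18 CPM in WT and 194 ± 2.48 CPM in KO, a log2 fold change of 0.21 (edgeR adjusted p 0.0704).

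Around the metallothioneins, 11 of 12 genes of zinc and metal handling were tested and 0 were called, with a median log2 fold change of 0.02. At an unadjusted p up to 0.05 there were 5 of the 11, beside 27.3% of all tested genes, and DESeq2 called 5, beside 20.9%. Mtf1, the zinc-sensing factor, had 37.2 ± 4.23 CPM in WT and 34.5 ± 1.73 CPM in KO (edgeR adjusted p 0.569). The zinc exporter Slc30a1, an MTF1 target, had 52.6 ± 2.17 CPM and 57.8 ± 2.20 CPM (adjusted p 0.207); both were chosen after their values were seen. The abundant Slc39a8 and Gclc had adjusted p values of 0.917 and 0.704. Mt4 had the largest change at a mean of 1 CPM or more, and its counts by library are given above.

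Around Cdkn1a, 2 of 18 p53 targets were called, both higher in KO, beside 2.28% of all tested genes (1.38% higher in KO). At an unadjusted p up to 0.05 there were 7 of the 18, beside 27.3%, and DESeq2 called 7, beside 20.9%. Bbc3 and Bax, which promote apoptosis, had log2 fold changes of 0.50 and 0.47 (edgeR adjusted p 0.0446 and 0.0464), which were 0.16 and 0.11 with the length and GC offset (adjusted p 0.342 and 0.245). They passed under 10 and 9 of 18 alternatives, and both calls were also lost with library size alone (adjusted p 0.0519 for each), the edgeR exact test (0.523 and 0.200), without KO1 (0.0893 and 0.0927), without KO2 and KO3 and without any 1 WT library. The Bax call was lost without KO2 alone too (0.0522). Btg2, an immediate early gene too, was the most abundant and had the largest change, with a log2 fold change of 1.31 (adjusted p 0.105), and Plk2 had 0.14 (adjusted p 0.498). Around Errfi1, 16 genes of EGF receptor feedback were tested and 0 were called. At an unadjusted p up to 0.05 there were 6 of the 16, beside 27.3% of all tested genes, and 5 were called by DESeq2, beside 20.9%. Their median log2 fold change was 0.18. Spry1 and Erbb3 had adjusted p values of 0.208 and 0.718, and Ereg, with the largest change, followed WT3 and KO1 at 1.67 and 3.41 CPM, against 0.18 to 0.34 CPM elsewhere.

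Markers of 5 other cell types separated the genotypes for most of their genes; among all tested genes 20.2% were lower and 20.7% higher in KO without overlap. Adipocyte markers were lower in all KO than in all WT libraries for 15 of 15 genes, and summed to 1635 to 2395 CPM in WT and 589 to 661 CPM in KO, with 0 of them at 0 counts. Cardiomyocyte markers were lower for 12 of 13 and summed to 2511 to 7061 CPM in WT and 1218 to 1403 CPM in KO, with Bmp10 at 0 in WT2 and in every KO library. Alveolar type 2 markers were higher for 9 of 10, at 27816 to 29536 CPM in WT and 38233 to 39926 CPM in KO. Hepatocyte markers were higher for 8 of 11 tested and lower for 0, at 79.7 to 84.2 CPM in WT and 90.7 to 157 CPM in KO, with 2 or 3 of 14 at 0 counts in each WT library and 0 in KO. Ciliated cell markers were higher for 4 of 7 and lower for 0, and their sums overlapped, at 2088 to 2388 CPM in WT and 2007 to 2804 CPM in KO. The study had picked many of the adipocyte markers (Adipoq, Lep, Plin1 and Ucp1 among them) from these libraries as lower in KO. The same holds for several cardiomyocyte markers (Bmp10 and Myl2 among them) and, as higher in KO, for the hepatocyte marker Alb. The counts without overlap for these lists are therefore not independent of that choice. The part of these tissues in the values of Fkbp5, Mt1, Nr3c1 and Lpin1 was not tested.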

How the data were processed

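RNA-seq of whole lung was deposited as 1 table of raw counts. Per the labels and the study's methods, the authors trimmed reads with Trimmomatic 0.36, aligned them to GRCm38 (mm10) with STAR 2.5.3a, used Picard 2.9.0 and counted reads per gene with HTSeq 0.6.0 within GenPipes. The annotation release, read length and strand setting were not given in the sources used here. All 6 library columns were used, and no row was without a gene.

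The 10 genes and all lists were chosen with earlier results of these data known. KO2 and KO3, labelled as separate mice, were summed because their counts differed by close to sampling noise. Only the fit with 6 separate libraries and the fit with the replicate block kept them apart. P-values measure the spread between these samples only. Counts were filtered with filterByExpr, scaled with TMM and compared with glmQLFit and glmQLFTest of edgeR 4.0.16 in R 4.3.3, with Benjamini-Hochberg adjustment over 18660 genes and a two-sided threshold of 0.05. The F statistic of each estimate gave its standard error and 95% interval. CPM used TMM-scaled library sizes, and a mean ± SD used 3 WT and 2 KO samples. The fit was first run on simulated counts with known fold changes, all larger than those of the 10 genes, and the same spread for every gene. Differences between libraries such as the squamous transcripts were not simulated, so that run does not cover them. Alternatives were 6 separate libraries, a replicate block, 2 other scalings, 2 other filters, DESeq2 1.42.0, the edgeR exact test, an offset for length and GC content, a squamous term, leaving out each library, and leaving out WT3 and KO1. Leaving out KO2 and KO3 was added after the data were seen. Fits without KO1, or without KO2 and KO3, left 1 KO sample, assumed to vary like WT.

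Coordinates, exon lengths and GC content were taken from GENCODE M21 (GRCm38), where 97.3% of the identifiers had an entry, and promoter sequences from RefSeq on GRCm38.p6. Genes beyond the 10 were named by a fixed rule: from each related list the called genes, the 2 most abundant and the one with the largest change at 1 CPM or more, and, for each of the 10 genes without overlap between genotypes, the 3 genes with the nearest profile, of which 1 is not reported here. Others are marked as chosen after their values were seen.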

Additional observations from a re-analysis of the deposited data

How the results depend on the processing

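Alternatives were those listed in the processing section, and the cause of each difference was not tested except where fewer samples or genes were used. The fit with the replicate block also kept the 6 libraries separate, so it differed from the reported fit in both respects. Its like fit without a block is the one with the 6 libraries kept separate. The number of called genes among all tested was 3402 with the 6 libraries kept separate, 1157 with the replicate block, 937 with a minimum of 10 counts per library, 3908 with DESeq2, 209 with the edgeR exact test, 3 with the offset for length and GC content, 1842 with the squamous epithelium term, 2256 without WT3 and KO1, 0 without KO2 and KO3, and 0 to 418 when 1 library was left out (0 without WT1, WT2 or WT3, and 17 without KO1). With library size alone 306 were called, and the higher calls went from 257 of 426 to 117 of 306. Of the 10 genes, 1 was called with the 6 libraries kept separate, 2 with DESeq2, 2 with the squamous term, 3 without WT3 and KO1, and 0 under every other alternative, leaving out 1 library included (0 to 0).

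No gene of the 10 turned its sign while past the threshold. Errfi1 turned with library size alone (-0.043), the offset for length and GC content (-0.021), with the squamous term (-0.0033) and without KO2 and KO3 (-0.14), Zbtb16 without KO2 and KO3 (-0.064), and Klf9 with the 6 libraries kept separate (0.037), the replicate block (0.041) and without WT3 and KO1 (0.26). When 1 library was left out, log2 fold changes ran from -0.15 to 0.35 for Tsc22d3, from -0.042 to 0.15 for Sgk1, from -0.15 to 0.16 for Klf9, from -0.087 to 1.51 for Mt2, from -0.034 to 0.84 for Cdkn1a, from 0.48 to 1.001 for Zbtb16 and from -0.13 to 0.14 for Errfi1. Nr3c1, Fkbp5 and Mt1 kept their direction under all 18 alternatives. Replicate numbers did not pair the libraries: same-numbered libraries had correlations of -0.67, 0.68 and -0.77 between their deviations from the group means, and WT3 correlated best with KO1 (0.85). The fit with the replicate block also kept the 6 libraries separate, and 0 of the 10 genes passed in it. With 6 separate libraries and no block 1 passed, and in the reported fit 0.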

Other observations

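The genes whose profile over the 5 samples lay nearest to those of Fkbp5, Mt1 and Nr3c1 were searched among 15169 tested genes with a mean of at least 1 CPM. Likeness was the root mean square difference of centred log2 CPM, a description over few samples that all differ by genotype. Among the nearest to Fkbp5 were Lcat (difference 0.017) and Mrpl32 (0.025). Nearest to Mt1 were the mitotic kinases Plk1 (0.015) and Aurka (0.034) and, between them, Hmox1, haem oxygenase 1 (0.024), which stress and heavy metals induce. Mean Hmox1 was 35.2 ± 5.91 CPM in WT and 47.5 ± 5.12 CPM in KO (edgeR adjusted p 0.155). Nearest to Nr3c1 were Xcr1 (0.012), Dnm1l (0.013) and Prkd3 (0.015). None of these 8 genes was called, with edgeR adjusted p values of 0.0740 to 0.302.

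Among immediate early genes, 1 of 25 was called, beside 2.28% of all tested genes, while 12 were at an unadjusted p up to 0.05 (27.3% of all tested genes), 11 were called by DESeq2 (20.9%) and 15 without WT3 and KO1 (11.9%). Jund rose from 144 ± 15.8 CPM to 270 ± 17.0 CPM (log2 fold change 0.91, edgeR adjusted p 0.0446). Jund lost the call with the offset for length and GC content (0.51, adjusted p 0.0889), without KO1 (0.0829), without KO2 and KO3 (0.0853) and when any 1 WT library was left out (0.83 to 0.99, adjusted p 0.123 to 0.189). Fos had the largest change of that list, with a log2 fold change of 2.42 (adjusted p 0.0893), and the abundant Jun and Cyr61 had 0.68 and 1.66 (adjusted p 0.0657 and 0.0993). The study had picked Fos and Cyr61 from these libraries. Cebpd, a listed glucocorticoid-induced gene chosen after its values were seen, had 38.0 to 66.8 CPM in WT and 69.7 to 87.4 CPM in KO (adjusted p 0.195).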
